A study of Mus musculus with 8 samples.

Results

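Alpha and beta tubulin are the building blocks of microtubules, and mammals encode each of them in several genes whose products are called isotypes. The account covers the 10 alpha and beta tubulin genes Tuba1a, Tuba1b, Tuba1c, Tuba4a, Tubb2a, Tubb2b, Tubb3, Tubb4a, Tubb5 and Tubb6. They were chosen by name from the 21878 gene symbols of 1 table of expression values, and all 10 were found. The values come from paired-end RNA sequencing of dorsal root ganglia (lumbar 4 and 5) taken from C57BL/6 mice. Sensory neurons have their cell bodies there, and many send axons into the sciatic nerve.

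There were 4 groups of 2 libraries each, 8 libraries in all, and the ganglia were taken 3 days after the operation. The dKO SNI and dKO sham mice carried floxed Myh9 and floxed Myh10 together with Advillin-Cre, and had the sciatic nerve cut or a sham operation. The WT SNI and WT sham mice carried the same floxed alleles without Cre, and had the same operations. All 4 groups therefore share the floxed alleles, and WT means the absence of Cre. SNI is the name the samples use for the axotomy. Myh9 and Myh10 encode heavy chains of non-muscle myosin II, the motor that contracts actin filaments. Advillin (Avil) is active in sensory neurons, so the deletion is directed at these cells, and the glia, vessels and blood cells of the ganglion are meant to keep both genes. Nothing in the labels says whether the 2 libraries of a group came from different animals, so the p-values reflect library-to-library spread, which may be technical.

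Alpha and beta tubulin pair into dimers, and dimers join head to tail into the wall of the microtubule. The isotypes are nearly alike in the body of the protein and differ most in a short acidic tail at the carboxyl end, which points away from the microtubule. Enzymes add and remove glutamates, glycines and, on most alpha tubulins, a last tyrosine in this tail, and motors and severing enzymes read these marks. In neurons, Tuba1a is the main alpha tubulin of growing axons, and Tubb3 is the beta tubulin most used as a neuronal marker. Tubb2a and Tubb2b are also abundant in neurons, and Tuba4a and Tubb4a are typical of the mature nervous system. Tuba1b, Tuba1c, Tubb5 and Tubb6 are made in many cell types, Tuba1b and Tubb5 abundantly in dividing cells.

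The stretch in which the isotypes differ most is shown because it tells most of the isotypes apart and is what the modifying enzymes described further down act on. Each line gives the last 60 coding bases before the stop codon (20 codons) from GENCODE M21 on GRCm38. Capitals mark the glutamate codons GAA and GAG read in frame. The tails of Tuba1a, Tuba1b, Tuba1c and Tubb6 are not shown.
Tuba4a: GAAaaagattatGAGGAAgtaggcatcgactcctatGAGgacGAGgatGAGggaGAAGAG
Tubb2a: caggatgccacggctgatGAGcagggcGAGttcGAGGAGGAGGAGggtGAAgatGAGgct
Tubb2b: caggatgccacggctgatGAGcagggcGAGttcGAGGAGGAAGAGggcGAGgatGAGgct
Tubb3: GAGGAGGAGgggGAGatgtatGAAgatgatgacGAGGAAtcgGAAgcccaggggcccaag
Tubb4a: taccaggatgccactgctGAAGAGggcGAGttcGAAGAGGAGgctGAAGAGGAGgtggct
Tubb5: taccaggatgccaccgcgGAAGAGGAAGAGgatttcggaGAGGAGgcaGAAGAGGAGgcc

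The 6 tails shown hold 8 to 9 glutamate codons each. The tail of Tuba4a ends in a glutamate codon. Those of Tubb2a and Tubb2b differ at 3 of the 60 bases, each in a codon for the same amino acid. The protein tails of this pair are therefore identical over the stretch shown. Over the whole coding sequence Tuba1a and Tuba1b were 98.3% identical, Tuba1b and Tuba1c 97.9%, Tuba1a and Tuba1c 97.1%, and Tubb2a and Tubb2b 96.5%. Every other pair within the alpha or within the beta genes was 80.2 to 86.0% identical.

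This likeness bears on the values, because a short read from a shared stretch fits more than 1 gene. Of all 50-base windows of the transcript, 52.0% of Tuba1a, 64.6% of Tuba1b, 59.8% of Tuba1c, 45.6% of Tubb2a and 33.4% of Tubb2b also occur in the transcript of another tubulin gene. The shares were 0.184% for Tubb4a, 0.0385% for Tubb5 and 0 for Tuba4a, Tubb3 and Tubb6. How reads with several places were assigned is not given in the sources used here. Values within Tuba1a, Tuba1b and Tuba1c, and within Tubb2a and Tubb2b, are therefore uncertain, and results for their sums are given as well.

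All 10 genes are protein coding and have 4 exons in the annotated transcript used. On GRCm38, Tuba1b (chr15:98931425-98934565), Tuba1a (chr15:98949837-98953703) and Tuba1c (chr15:99029891-99038110) lie close together on chromosome 15, and Tuba4a (chr1:75214228-75219865) lies on chromosome 1. Tubb2a (chr13:34074274-34078007) and Tubb2b (chr13:34126748-34130466) lie close together on chromosome 13. Tubb5 (chr17:35833921-35838306) and Tubb4a (chr17:57080066-57087782) are on chromosome 17, Tubb3 (chr8:123411424-123422015) on chromosome 8 and Tubb6 (chr18:67390717-67402749) on chromosome 18. Tuba1c, Tubb3 and Tubb6 are on the plus strand and the others on the minus strand.

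Some facts of the libraries touch every result. Values are FPKM, fragments per length of transcript and per number of mapped fragments, so levels can be compared between genes per length and are relative to each library's total. Totals of FPKM were 278310 to 339920 per library, and the read depth behind them is unknown, so no counting error can be given. The targeted Myh10 lay at 5.31 and 4.12 FPKM in dKO SNI while WT SNI had 13.8 and 10.4 FPKM, and at 12.2 and 14.4 FPKM in dKO sham while WT sham had 18.1 and 23.5 FPKM. Myh9 lay at 24.6 and 24.4 FPKM in dKO SNI while WT SNI had 30.8 and 29.7 FPKM, and at 10.9 and 12.1 FPKM in dKO sham while WT sham had 27.2 and 31.6 FPKM. Avil ranged from 34.5 to 80.0 FPKM in dKO libraries and from 112 to 180 FPKM in WT libraries. The 4 Y-linked genes (Ddx3y, Eif2s3y, Kdm5d and Uty) summed to 37.4 to 38.7 FPKM in dKO SNI and 22.7 to 23.2 FPKM in WT sham, but to no more than 0.0109 FPKM in any dKO sham and 0.00745 in any WT SNI library. Every comparison of 2 groups below, and the interaction, thus also differs in Y-linked transcripts, and the difference of interest and this one cannot be told apart there. The averages over genotypes or over surgeries hold the same number of such libraries on both sides, but the levels were not equal. In SNI against sham averaged over genotypes, limma called Eif2s3y (0.37 ± 0.086 SE, adjusted p = 0.00541) and Ddx3y (0.35 ± 0.085, 0.00745) higher. In dKO against WT averaged over surgeries, 2 of the 4 were also called higher. A set of 7 skeletal muscle genes summed to 526 FPKM in WT sham library 2 and to 1.84 to 13.8 FPKM in the other 7 libraries.

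Tuba1a and Tubb3 carried most of the tubulin message in every group. Mean Tuba1a levels were 1351 ± 243 FPKM in dKO SNI, 1475 ± 142 in dKO sham, 2052 ± 205 in WT SNI and 1525 ± 62.7 in WT sham (SD, n = 2 each). Mean Tubb3 levels were 1057 ± 281 FPKM in dKO SNI, 1323 ± 77.2 in dKO sham, 1877 ± 294 in WT SNI and 1367 ± 25.9 in WT sham (SD, n = 2 each). Tuba1a ranked above Tubb3 in all 4 groups by mean, but only in WT sham did both libraries of Tuba1a lie above both of Tubb3. Among the isotypes covered here, Tubb5 and then Tubb2a followed in all groups, at means of 351 to 539 FPKM and 282 to 489 FPKM. The 2 did not separate in dKO SNI or in WT SNI.

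The lower ranks differed between operations. After sham surgery the order went on with Tuba1b, Tubb4a, Tubb2b, Tuba4a and Tuba1c and ended with Tubb6, which averaged 7.91 FPKM in dKO sham and 6.41 in WT sham. After SNI the order was Tubb2b, Tuba1b, Tubb4a, Tuba4a, Tubb6 and Tuba1c. Tubb2b thus stood above Tuba1b and Tubb4a after SNI and below both after sham surgery, in both genotypes and in both libraries of each group. Tubb6 likewise stood above Tuba1c after SNI and below it after sham surgery. Neighbours that did not separate were Tubb2a and Tubb2b in dKO SNI, Tubb4a and Tuba4a in dKO SNI, Tuba4a and Tubb6 in dKO SNI and WT SNI, and Tuba1b and Tubb4a in WT sham.

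**Figure D1:**
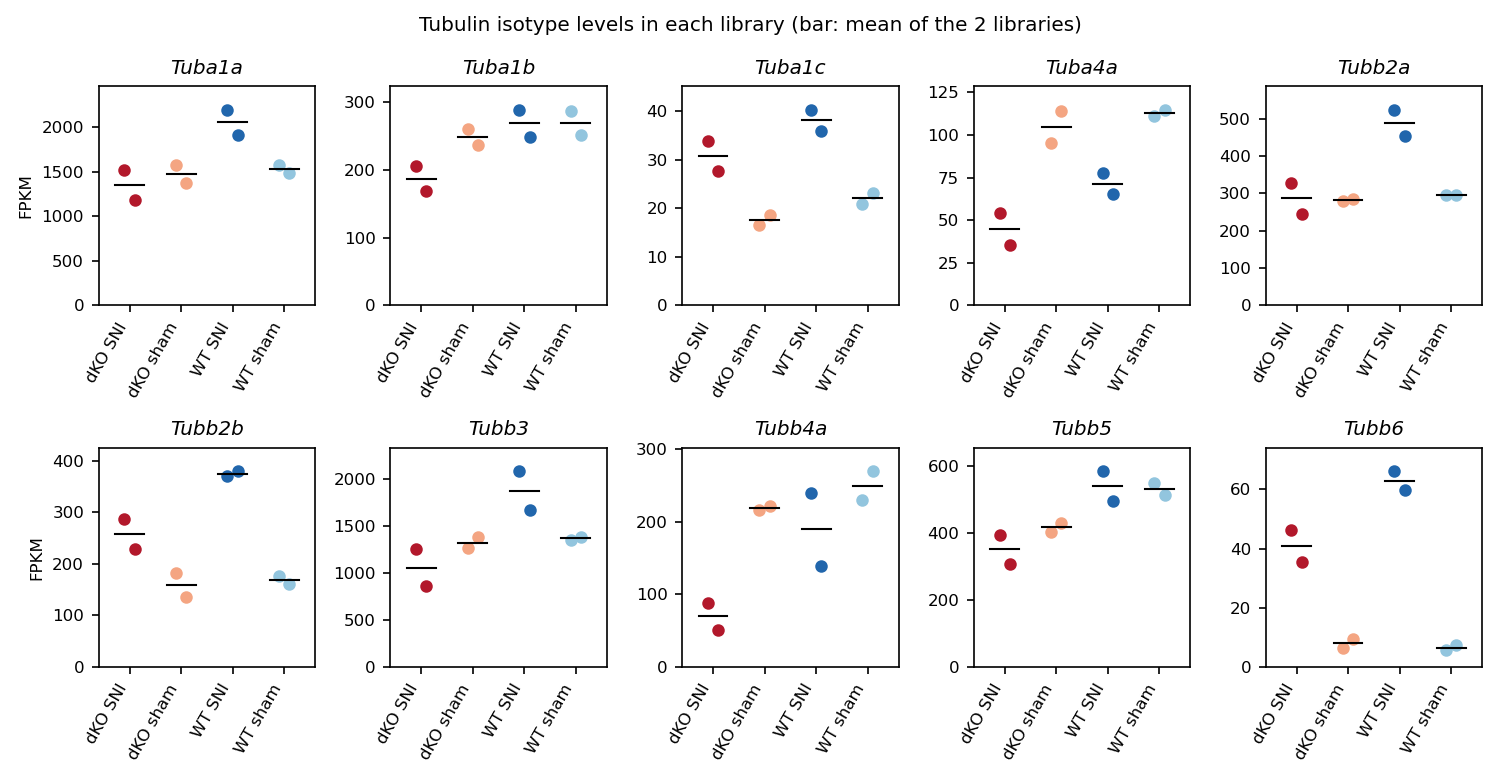
Level of each tubulin isotype in FPKM (linear axis from 0) in the 2 libraries of dKO SNI, dKO sham, WT SNI and WT sham, with a bar at the mean of each group. Tubb6, Tubb2b and Tuba1c lie higher in both SNI groups than in their sham groups, Tuba4a lies lower, and Tuba1a, Tubb2a and Tubb3 peak in WT SNI.

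The injury comparison asks how tubulin messages differ 3 days after the nerve was cut. In dKO mice, 3 isotypes rose (Tubb6, Tubb2b and Tuba1c) and 2 fell (Tuba4a and Tubb4a). In WT mice, 4 rose (Tubb6, Tubb2b, Tubb2a and Tuba1c) and 1 fell (Tuba4a). After quantile normalization the dKO tally was 2 up (Tubb6 and Tuba1c) and 5 down (Tuba4a, Tubb4a, Tuba1b, Tubb3 and Tubb5). A gene was called where the p-value of limma on log2(FPKM + 1), adjusted over 12884 genes, was below 0.05, and all 10 isotypes passed the filter on low values. In dKO SNI against dKO sham, 23.8% of all genes were called higher and 24.6% lower, and in WT SNI against WT sham 13.6% were called higher and 9.38% lower. Higher genes made up 59.3% of all calls in WT SNI against WT sham, and 45.9% after quantile normalization. The median log2 change of the 10 isotypes was -0.195 in dKO mice, where that of all genes was -0.001, and 0.437 in WT mice, where that of all genes was 0.065. Averaged over the genotypes, 4 isotypes rose and 2 fell, where 29.5% of all genes were called higher and 25.5% lower. After quantile normalization that tally was 3 up and 4 down, without Tubb2a and with Tuba1b and Tubb5. In dKO mice and in the average, the share of isotypes called in either direction was close to that of all genes. Nothing particular to the isotypes is read from those tallies. The isotypes went both ways, and the account below takes them by role.

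**Figure D2:**
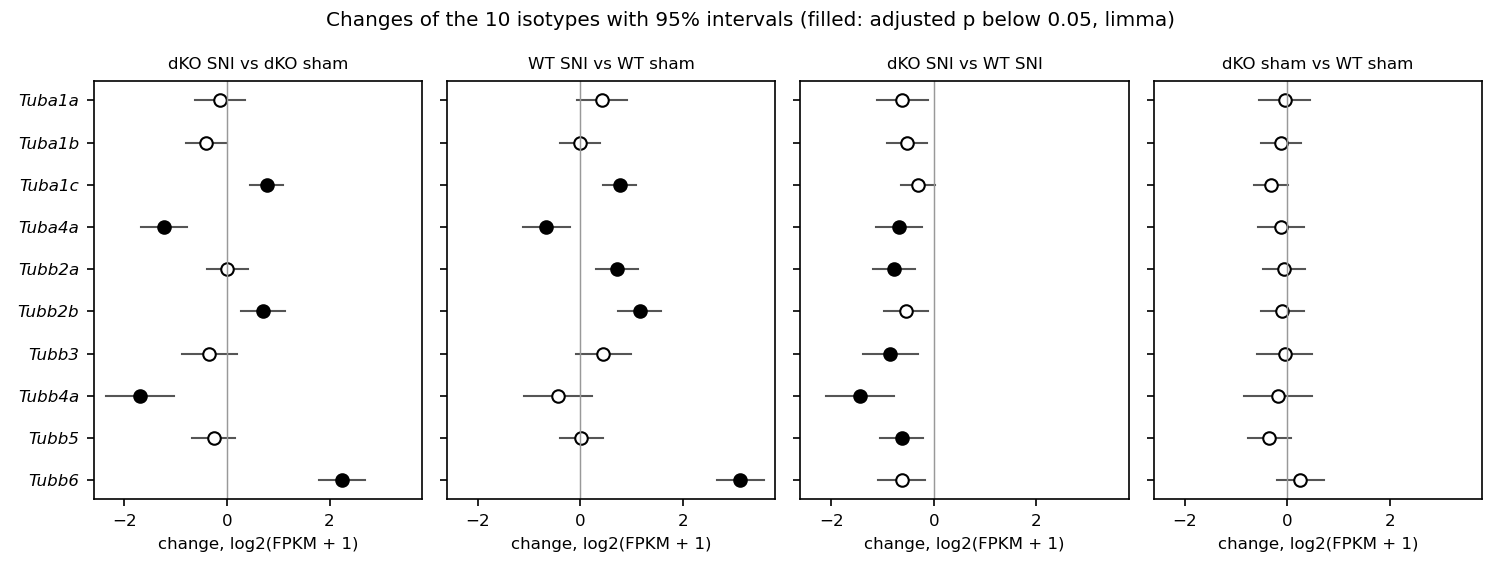
Change of each isotype on the log2(FPKM + 1) scale with its 95% interval in the 4 comparisons of 2 groups, filled where the adjusted p in limma is below 0.05. Tubb6 lies furthest to the right in both injury panels, at 2.24 in dKO mice and 3.12 in WT mice, and all 10 isotypes lie left of 0 in dKO SNI against WT SNI.

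Tubb6, a beta tubulin of many tissues that is scarce in the brain, showed the largest rise. It had 46.2 and 35.4 FPKM in dKO SNI against 6.30 and 9.52 in dKO sham, while WT SNI had 66.2 and 59.7 FPKM against 5.58 and 7.23 FPKM in WT sham. No SNI library came near a sham library in either genotype. The SNI mean was 5.16 times the sham mean in dKO mice (log2 change 2.24 ± 0.204 SE, limma adjusted p = 8.8e-05). It was 9.83 times the sham mean in WT mice (3.12 ± 0.204, limma adjusted p = 2.69e-05). Averaged over the genotypes the log2 change was 2.68 ± 0.144 (limma adjusted p = 3.31e-06).

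Tubb2b and Tubb2a are a near-identical pair of beta tubulins, and whether their changes differ from each other was not tested. Tubb2b had 287 and 228 FPKM in dKO SNI against 183 and 135 in dKO sham, while WT SNI had 370 and 380 FPKM against 176 and 161 FPKM in WT sham. Both SNI groups lay above their sham groups without overlap. The log2 change was 0.70 ± 0.19 SE in dKO mice (limma adjusted p = 0.0139) and 1.15 ± 0.19 in WT mice (limma adjusted p = 0.00338). The call in dKO mice did not hold without dKO sham library 2 (adjusted p = 0.101) or dKO SNI library 1 (0.0728), without the filter (0.0612) or after quantile normalization (0.112).

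Tubb2a had 327 and 246 FPKM in dKO SNI against 280 and 284 in dKO sham, while WT SNI had 525 and 453 FPKM against 296 and 295 FPKM in WT sham. The groups overlapped in dKO mice and stood apart in WT mice. Its log2 change was 0.01 ± 0.181 SE in dKO mice (95% interval -0.40 to 0.42) and 0.72 ± 0.181 in WT mice (limma adjusted p = 0.0207). The WT call was lost when any of the 4 WT libraries was left out (adjusted p = 0.0618 to 0.111), without the filter (0.0825) and after quantile normalization (0.0949). The average over genotypes was 0.36 ± 0.128 (limma adjusted p = 0.0354). That call was also lost without any 1 of the 6 libraries other than WT SNI library 2 and dKO SNI library 2 (adjusted p = 0.0756 to 0.108) and without the filter (0.0832), and quantile normalization brought the change to 0.08 (0.661).

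Because reads of this pair can be swapped, their sum was tested as 1 feature, an alternative added after the data had been seen. Tubb2a and Tubb2b together had 613.7 and 474.9 FPKM in dKO SNI against 463.3 and 419.1 in dKO sham, while WT SNI had 895 and 833.2 FPKM against 471.8 and 456 FPKM in WT sham. The summed level lay higher in every SNI library than in the sham libraries of its genotype. In limma the log2 change of the sum was 0.29 ± 0.186 SE in dKO mice (adjusted p = 0.219), 0.90 ± 0.186 in WT mice (0.00919) and 0.59 ± 0.131 averaged over the genotypes (0.00428).

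Among the alpha tubulins of chromosome 15, the scarce Tuba1c rose and the abundant Tuba1a and Tuba1b did not pass the test. Tuba1c had 33.9 and 27.8 FPKM in dKO SNI against 16.5 and 18.6 in dKO sham, while WT SNI had 40.4 and 36 FPKM against 21.0 and 23.1 FPKM in WT sham. Each SNI library lay above all 4 sham libraries. The log2 change was 0.78 ± 0.144 SE in dKO mice (limma adjusted p = 0.00229) and 0.77 ± 0.144 in WT mice (limma adjusted p = 0.00601). The WT call had an adjusted p of 0.0529 without WT sham library 1.

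Tuba1a, the main alpha tubulin of axons, had 1523 and 1179 FPKM in dKO SNI against 1575 and 1374 in dKO sham. It had 2197 and 1906 FPKM in WT SNI against 1569 and 1481 in WT sham. The WT groups stood apart and the dKO groups overlapped. Its log2 change was -0.14 ± 0.22 SE in dKO mice (limma adjusted p = 0.634) and 0.43 ± 0.22 in WT mice (limma adjusted p = 0.187).

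Tuba1b, the alpha tubulin of many dividing cells, had 206 and 168 FPKM in dKO SNI against 260 and 236 in dKO sham. It had 289 and 249 FPKM in WT SNI against 287 and 252 in WT sham. Both dKO SNI libraries lay below the dKO sham libraries, and the WT groups overlapped. The log2 change of -0.41 ± 0.172 SE in dKO mice missed the threshold (limma adjusted p = 0.0752). It was called after quantile normalization (-0.61, 0.0181) and without dKO SNI library 1 (-0.56, 0.0437). In WT mice it was -0.00 ± 0.172 (limma adjusted p = 0.993). The average over both genotypes was -0.21 ± 0.122 (limma adjusted p = 0.177), and -0.42 after quantile normalization, which passed (0.0173). Summed into 1 feature, Tuba1a, Tuba1b and Tuba1c had log2 changes of -0.16 ± 0.223 in dKO mice (limma adjusted p = 0.581) and 0.37 ± 0.223 in WT mice (limma adjusted p = 0.248).

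Tubb3, the neuronal beta tubulin, was not called in either injury comparison, and its changes pointed in opposite directions. It had 1255 and 859 FPKM in dKO SNI against 1269 and 1378 in dKO sham, while WT SNI had 2085 and 1669 FPKM against 1348 and 1385 FPKM in WT sham. Both dKO SNI libraries lay below the dKO sham libraries and both WT SNI libraries above the WT sham libraries. The log2 change was -0.35 ± 0.238 SE in dKO mice (limma adjusted p = 0.252) and 0.45 ± 0.238 in WT mice (limma adjusted p = 0.197). After quantile normalization the dKO value was -0.84 and passed (adjusted p = 0.0303). Averaged over the genotypes it was 0.05 ± 0.169 (95% interval -0.33 to 0.43), and -0.31 after quantile normalization.

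Tubb5, made in most cell types, had 395 and 308 FPKM in dKO SNI against 403 and 430 in dKO sham. It had 585 and 494 FPKM in WT SNI against 549 and 514 in WT sham. The dKO SNI libraries were the lower pair in dKO mice and the WT groups overlapped. Its log2 change was -0.26 ± 0.186 SE in dKO mice (limma adjusted p = 0.283) and 0.02 ± 0.186 in WT mice (limma adjusted p = 0.955). Quantile normalization gave -0.69 in dKO mice, which passed (adjusted p = 0.0177), and -0.12 in WT mice, where median centring gave -0.03. Averaged over the genotypes it was -0.12 ± 0.132 (limma adjusted p = 0.47), and -0.41 after quantile normalization, which passed (0.034).

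Tuba4a and Tubb4a, the isotypes of the mature nervous system, fell in the average over the genotypes. Tuba4a had 54.2 and 35.6 FPKM in dKO SNI against 95.3 and 114 in dKO sham, while WT SNI had 77.6 and 65.1 FPKM against 111 and 115 FPKM in WT sham. All 4 SNI libraries lay below all 4 sham libraries. The log2 change was -1.23 ± 0.202 SE in dKO mice (limma adjusted p = 0.0012), -0.66 ± 0.202 in WT mice (0.0426) and -0.94 ± 0.142 averaged over the genotypes (0.000549). The WT call was lost without any 1 of the 4 WT or 2 dKO sham libraries (adjusted p = 0.0512 to 0.228) and without the filter (0.171).

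Tubb4a had 88.5 and 50.4 FPKM in dKO SNI against 216 and 222 in dKO sham. It had 240 and 139 FPKM in WT SNI against 230 and 270 in WT sham. The dKO groups were far apart, whereas WT SNI library 1 lay among the sham libraries. Its log2 change was -1.70 ± 0.295 SE in dKO mice (limma adjusted p = 0.00163) and -0.44 ± 0.295 in WT mice (limma adjusted p = 0.3). Averaged over the genotypes it was -1.07 ± 0.209 (limma adjusted p = 0.00224), the largest fall among the 10 isotypes.

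Markers of the cells in a ganglion moved with the same contrast. Of 12 sensory neuron markers, 11 were called lower in SNI than in sham averaged over the genotypes (median log2 change -1.02). Pirt changed by -1.27 ± 0.116 SE (limma adjusted p = 3.82e-05), Rbfox3 by -1.26 ± 0.125 (5.48e-05) and Isl1 by -0.81 ± 0.088 (8.81e-05). Summed levels of the 12 were 1948 to 2851 FPKM in dKO SNI against 5229 to 5987 FPKM in dKO sham, while WT SNI had 3746 to 5015 FPKM against 5831 to 6594 FPKM in WT sham. In a bulk sample, fewer cells of a type and less RNA per cell cannot be told apart. All 10 markers of dividing cells were higher (median 1.49), led by Prc1, Ccna2 and Cdk1, with sums of 70.6 to 83.0 FPKM in dKO SNI against 14.4 to 18.8 FPKM in dKO sham, while WT SNI had 30.0 to 45.9 FPKM against 5.16 to 7.92 FPKM in WT sham.

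Blood and connective tissue markers rose too. All 10 macrophage markers (median 2.43; Mrc1, C1qb and Cd68 first) summed to 614 to 745 FPKM in dKO SNI against 68.7 to 98.0 FPKM in dKO sham, while WT SNI had 379 to 382 FPKM against 42.2 to 59.0 FPKM in WT sham. All 7 neutrophil markers (median 2.15; Mpo, Elane and Camp first) summed to 6823 to 7007 FPKM in dKO SNI against 684 to 1102 FPKM in dKO sham, while WT SNI had 1251 to 2481 FPKM against 699 to 938 FPKM in WT sham. All 6 fibroblast markers (median 1.36; Col3a1, Col1a1 and Pdgfra first) summed to 1033 to 1311 FPKM in dKO SNI against 419 to 526 FPKM in dKO sham, while WT SNI had 542 to 829 FPKM against 190 to 279 FPKM in WT sham. Of 6 endothelial markers 3 rose (median 0.35; Pecam1, Cdh5 and Emcn). Of 10 markers of satellite and Schwann cells 4 rose and 1 fell (median 0.19; Cdh19 up, Kcnj10 down). Of all genes, 29.5% were called higher and 25.5% lower in SNI against sham averaged over the genotypes. Apart from the Y-linked genes, no marker was at 0 in any library. Of the 5 muscle genes tested 0 were called by limma in the averaged contrast and 0 had an unadjusted p below 0.05, with Ckm at an adjusted p of 0.112, Acta1 at 0.116 and Tnnt3 at 0.154. The part of these shifts in the tubulin changes was not tested.

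The genotype comparison asks what deletion of Myh9 and Myh10 in Avil-expressing cells goes with. After sham surgery 0 of the 10 isotypes were called by limma in dKO sham against WT sham, and 0 had an unadjusted p below 0.05, where 0.0931% of all genes were called higher and 0.0621% lower. The smallest adjusted p was 0.473, for Tuba1c at a log2 difference of -0.31 ± 0.144 SE. Tubb5 followed with 403 and 430 FPKM in dKO sham against 549 and 514 FPKM in WT sham (-0.35 ± 0.186, 95% interval -0.77 to 0.07). For Tuba1a the interval was -0.54 to 0.44 and for Tubb3 -0.58 to 0.49. These intervals are not adjusted for the number of genes, so differences of that size, and larger ones, could be missed here. Of the targeted genes Myh9 was called (-1.28 ± 0.127 SE, limma adjusted p = 0.00435). Myh10 was not (-0.60 ± 0.184, limma adjusted p = 0.299). The median of the 10 was -0.105, and that of all genes 0.038.

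After SNI every isotype was lower in both dKO libraries than in both WT libraries. That held for 37.4% of all genes tested. In dKO SNI against WT SNI 5 isotypes fell and 0 rose by the adjusted p (Tuba4a, Tubb2a, Tubb3, Tubb4a and Tubb5), where 13.4% of all genes were called lower and 10.7% higher. The median log2 difference of the 10 was -0.624, and that of all genes -0.032. Here the targeted Myh10 was called by limma (-1.19 ± 0.184 SE, adjusted p = 0.00929). Myh9 was not (-0.30 ± 0.127, limma adjusted p = 0.113). Tubb3 had 1255 and 859 FPKM in dKO SNI while WT SNI had 2085 and 1669 FPKM (-0.85 ± 0.238 SE, limma adjusted p = 0.0328). Tubb4a had 88.5 and 50.4 FPKM in dKO SNI while WT SNI had 240 and 139 FPKM (-1.44 ± 0.295, limma adjusted p = 0.0132), the largest difference of the 10.

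The other isotypes differed by -0.31 to -0.78 after SNI. Tubb2a differed by -0.78 ± 0.181 SE (limma adjusted p = 0.0183), Tuba4a by -0.68 ± 0.202 (0.0377) and Tubb5 by -0.62 ± 0.186 (0.0392). Tubb6 (-0.62 ± 0.204, adjusted p = 0.0521), Tuba1b (-0.53 ± 0.172, 0.052), Tubb2b (-0.55 ± 0.19, 0.0615) and Tuba1a (-0.61 ± 0.22, 0.0686) lay just beyond the threshold, and Tuba1c at -0.31 ± 0.144 further off (0.143). The sum of Tubb2a and Tubb2b differed by -0.68 ± 0.186 (0.0303).

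These calls rest on few libraries. Without WT SNI library 1, or without dKO SNI library 2, 0 of the 10 isotypes were called. With 1 other library left out, the number was 4 without either dKO sham library, 2 without either WT sham library, 3 without WT SNI library 2 and 9 without dKO SNI library 1. It was 0 with no filter on low values and 3 when only these 2 groups were fitted. With a filter at a mean of 5 FPKM, with quantile normalization or with no mean-variance trend it was 8. Over all genes 3106 were called, against 60 with no filter and 2195 when only these 2 groups were fitted. The filter at a mean of 5 FPKM gave 2358, quantile normalization 3248 and no trend 3097. The number over all genes also varied with the library left out. Beside the isotypes, limma called 8 of the 12 sensory neuron markers lower in dKO SNI (median -0.74). It called 9 of 10 dividing cell markers (1.09), 7 of 10 macrophage markers (0.83) and 7 of 7 neutrophil markers (1.79) higher. Their part in the tubulin differences was not tested.

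Averaged over the surgeries, 3 isotypes were lower in dKO than in WT and 0 were higher, where 10.4% of all genes were called lower and 11.8% higher. These were Tubb4a (-0.81 ± 0.209 SE, limma adjusted p = 0.027), Tubb5 (-0.49 ± 0.132, 0.0312) and Tubb2a (-0.42 ± 0.128, 0.0428). The share of all genes whose 4 dKO libraries all lie below the 4 WT libraries was not computed. Of the 10 isotypes Tubb5 alone had this order, with 308 to 430 FPKM in dKO and 494 to 585 FPKM in WT libraries. The count fell to 0 without WT sham library 2, WT SNI library 1, either dKO sham library or dKO SNI library 2, and to 1 without WT sham library 1. It was 7 without dKO SNI library 1 and after quantile normalization, and 0 with no filter. Over all genes 2866 were called, against 49 with no filter and 2794 after quantile normalization. That number also varied with the library left out. The median of the 10 was -0.365, and that of all genes 0.007. In the same contrast 8 of 12 sensory neuron markers were called lower (median -0.48). All 10 dividing cell (0.82), 8 of 10 macrophage (0.68), 7 of 7 neutrophil (1.13) and 5 of 6 fibroblast markers (0.93) were called higher, and their part in the tubulin differences was not tested.

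The interaction asks whether the injury change differs between the genotypes. By limma 0 of the 10 isotypes were called, where 0.0543% of all genes were, and 4 isotypes had an unadjusted p below 0.05. These were Tubb6 (dKO change minus WT change -0.88 ± 0.288 SE, adjusted p = 0.279), Tubb4a (-1.25 ± 0.417, 0.28), Tubb2a (-0.71 ± 0.255, 0.286) and Tubb3 (-0.80 ± 0.337, 0.327). The median of the 10 was -0.563, and that of all genes -0.084. The calls of Tubb2a in WT mice and of Tubb4a in dKO mice, each without a call in the other genotype, are thus not shown to differ between the genotypes.

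The message of the 4 alpha genes and of the 6 beta genes was also summed in each library. Summed alpha levels were 1817 and 1410 FPKM in dKO SNI, 1947 and 1743 in dKO sham, 2604 and 2257 in WT SNI and 1988 and 1871 in WT sham. Summed beta levels were 2399 and 1727 FPKM in dKO SNI, 2356 and 2459 in dKO sham, 3872 and 3195 in WT SNI and 2604 and 2632 in WT sham. WT SNI held the highest values of both and dKO SNI library 2 the lowest. The 10 genes took 0.923% of all FPKM in dKO SNI library 2 and 2.13% in WT SNI library 1, with the other libraries between.

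Sums were compared with exact two-sided permutation tests of 4 against 4 libraries, which cannot go below p = 0.0286, and 8 such p-values were adjusted together. Summed beta was 2235 ± 341 FPKM in dKO and 3076 ± 596 FPKM in WT libraries (SD, n = 4 each), with an exact permutation p of 0.0286 and an adjusted p of 0.229. All 4 dKO libraries lay below all 4 WT libraries. Summed alpha was 1729 ± 229 FPKM in dKO and 2180 ± 325 FPKM in WT libraries (SD, n = 4 each; exact permutation p = 0.0571, adjusted 0.229). SNI and sham libraries had 2022 ± 520 and 1887 ± 108 FPKM of alpha (exact permutation p = 0.8, adjusted 0.857) and 2798 ± 934 and 2513 ± 129 FPKM of beta (exact permutation p = 0.771, adjusted 0.857; SD, n = 4 each). With this floor and 8 tests, 1 fully separated sum could not pass after adjustment, so the adjusted p-values say little about the sums.

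The ratio of the alpha to the beta sum stayed between 0.672 and 0.826 in all libraries. This beta sum leaves out Tubb4b, which ranged from 162 to 471 FPKM, and the ratio with Tubb4b was not computed. It was 0.777 ± 0.0548 in dKO and 0.713 ± 0.0376 in WT libraries (SD, n = 4 each; exact permutation p = 0.171, adjusted 0.457). It was 0.738 ± 0.0627 in SNI and 0.752 ± 0.0554 in sham libraries (exact permutation p = 0.657, adjusted 0.857).

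Tubb3 made up 49.7 to 53.9% of beta FPKM in SNI and 51.8 to 56.0% in sham libraries (52.0 ± 1.72 and 53.6 ± 1.85%, SD, n = 4 each; exact permutation p = 0.343, adjusted 0.686). With Tubb1 and Tubb4b counted in the beta sum, the log2 difference of this share between SNI and sham was 0.058 in place of -0.042. The share was 53.0 ± 2.66% in dKO and 52.6 ± 0.886% in WT libraries (exact permutation p = 0.857, adjusted 0.857). The other shares were not tested and are given as ranges over 4 SNI and 4 sham libraries. Tubb4a held 2.92 to 6.21% after SNI and 8.82 to 10.3% after sham surgery, and Tubb2b 9.56 to 13.2% and 5.50 to 7.77%. Tubb2a held 13.6 to 14.3% after SNI and 11.2 to 11.9% after sham surgery, and Tubb6 1.71 to 2.05% and 0.214 to 0.387%. Tubb5, at 15.1 to 17.8% after SNI and 17.1 to 21.1% after sham surgery, was the other beta share whose ranges overlapped.

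In the alpha pool Tuba1a held 83.6 to 84.5% after SNI and 78.9 to 80.9% after sham surgery. Tuba1b held 11.1 to 11.9% after SNI and 13.3 to 14.4% after sham surgery. Tuba4a held 2.52 to 2.98% after SNI and 4.90 to 6.53% after sham surgery, and Tuba1c 1.55 to 1.97% and 0.847 to 1.24%. The ranges of the 2 operations did not overlap for any of the 4 alpha shares. Shares within a pool are tied to each other, so a higher share of 1 isotype lowers the others.

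**Figure D3:**
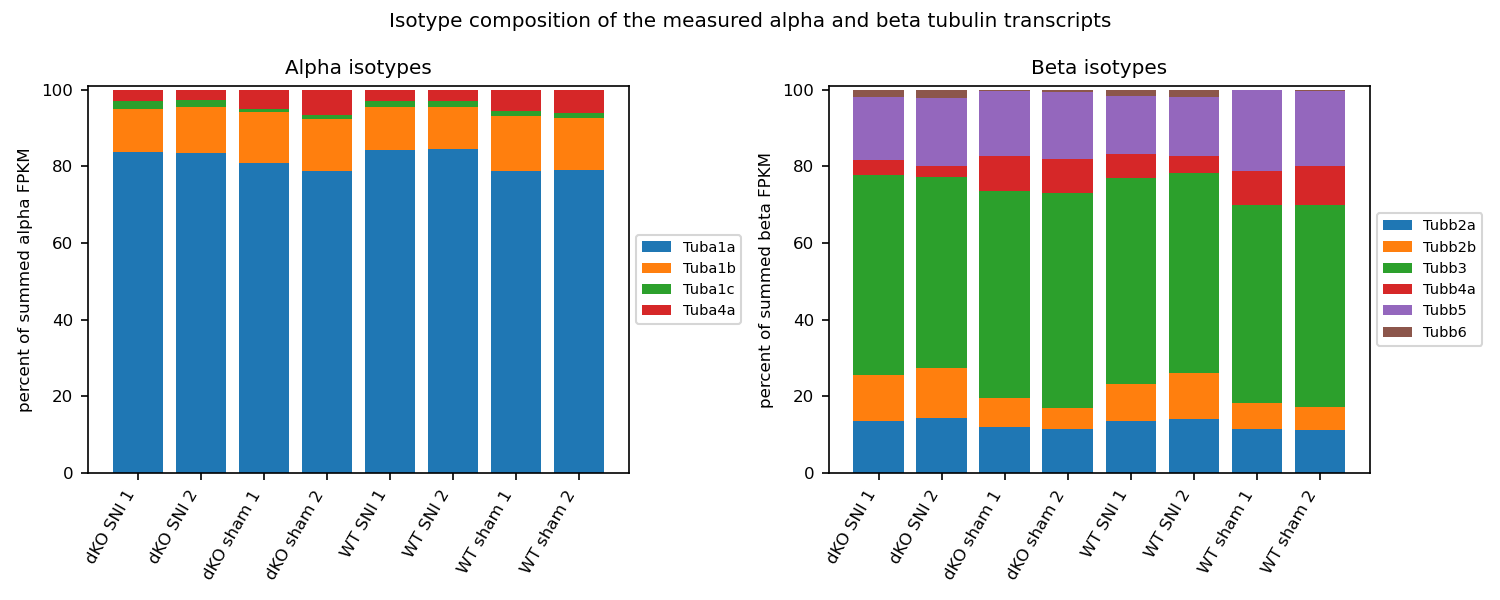
Share of each alpha isotype in the summed alpha FPKM (left) and of each beta isotype in the summed beta FPKM (right), in percent, 1 bar per library. Tuba1a takes 78.9 to 84.5% of the alpha sum and Tubb3 49.7 to 56.0% of the beta sum, which leaves out Tubb4b, in every library. The Tubb4a and Tuba4a segments are thinner in the SNI than in the sham libraries.

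Patterns over the 8 libraries were compared by the mean absolute difference of log2(FPKM + 1) after each gene was centred on its own mean. Libraries share their cell mixture and their total, so a likeness is a description. Among the isotypes the closest pairs were Tuba1b with Tubb5 (0.088), Tuba1a with Tubb2a (0.11) and Tuba1a with Tubb3 (0.113). Tuba4a was closest to Tubb4a (0.24), and Tubb6 was far from all others (at least 0.877, from Tubb2b). The search for near genes outside the isotypes left out gene symbols that start with a digit. Of the other genes tested, the 5 closest to Tubb4a were Syn1 (0.043), Rtn1 (0.069), Cplx1 (0.076), Nefl (0.095) and Ptprn2 (0.101). Syn1 and Cplx1 encode synaptic vesicle and release proteins, and Nefl the light neurofilament chain. The 5 closest to Tubb3 were Kcnk12 (0.062), Aars (0.081), Galnt18 (0.088), Cltb (0.096) and Smpd1 (0.096). Those closest to Tubb6 were Sez6l (0.168), Gadd45a (0.214), Fgf3 (0.218), Tmem88b (0.22) and Csf1 (0.248). Csf1 encodes a growth factor for macrophages and Gadd45a a stress protein.

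Other tubulin genes gave a reference point within the superfamily. Of the 10 such genes found, 6 passed the filter. Averaged over genotypes, where 29.5% of all genes were called higher and 25.5% lower, 3 fell and 0 rose in SNI against sham (median -0.451). They were Tubg2 (-1.26 ± 0.132 SE, limma adjusted p = 7.39e-05) and Tubg1 (-0.77 ± 0.123, 0.00075), the gamma tubulins that start microtubules, and Tubb4b (-0.77 ± 0.155, 0.0026). Tubb4b, a beta tubulin of many tissues and of cilia, had 232 and 162 FPKM in dKO SNI against 401 and 441 in dKO sham, while WT SNI had 400 and 293 FPKM against 451 and 471 FPKM in WT sham. Tuba3a, Tuba3b and Tubal3 were listed at 0 in all libraries.

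The partners that make, modify and nucleate tubulin were read next in the same contrast, SNI against sham averaged over the genotypes. Of 20 genes for tubulin folding (the chaperonin CCT, prefoldin and the tubulin cofactors), 6 rose and 2 fell (median 0.116), where 29.5% of all genes were called higher and 25.5% lower, close to the share of the list that rose. By the smallest p the first 3 were Tbcc (-0.57 ± 0.1 SE, limma adjusted p = 0.00125), a cofactor of the last folding step, Tbca (0.87 ± 0.159, 0.00159), which holds beta tubulin, and the prefoldin subunit Pfdn4 (0.83 ± 0.153, 0.00166). Of 4 genes for the decay of tubulin mRNA when free tubulin is plentiful, a role worked out in human cells, Ttc5 rose (0.32 ± 0.103, 0.024) and Scaper fell (-0.46 ± 0.112, 0.00736). Cnot1, a subunit of the deadenylase complex, changed by -0.24 ± 0.095 and missed the threshold (0.0565), and the median of the 4 was -0.192.

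Of 28 genes for the modification of tubulin, 20 passed the filter, and 3 rose and 10 fell (median -0.269). The shares of all genes were 29.5% higher and 25.5% lower. Vash2, which cuts the last tyrosine from alpha tubulin, had 4.33 and 5.57 FPKM in dKO SNI against 1.10 and 1.08 in dKO sham. It had 4.71 and 4.51 FPKM in WT SNI against 0.993 and 1.08 in WT sham (average log2 change 1.48 ± 0.099 SE, limma adjusted p = 8.6e-06). All SNI libraries lay above all sham libraries. Ttll7, which adds glutamates to the tail of beta tubulin, fell by 0.97 on the log2 scale (limma adjusted p = 0.000103), and Tpgs2, a subunit of a glutamylase complex, by 0.72 (0.000496).

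Beside these, Ttl, Svbp and Vash1 were picked after their values had been seen. Ttl, which puts the last tyrosine back on alpha tubulin, had 37.9 and 26.4 FPKM in dKO SNI against 79.3 and 72.9 in dKO sham, while WT SNI had 72.2 and 60.5 FPKM against 86.5 and 93.9 FPKM in WT sham (-0.84 ± 0.128 SE, limma adjusted p = 0.000586). Svbp, the partner that Vash2 needs, had 18.5 and 20.9 FPKM in dKO SNI against 10.2 and 10.5 in dKO sham, while WT SNI had 12.2 and 12.6 FPKM against 9.39 and 5.59 FPKM in WT sham (0.78 ± 0.136, 0.0012). Vash1, which also cuts the last tyrosine, went the other way from Vash2 in dKO mice, with 9.83 and 9.16 FPKM in dKO SNI against 12.9 and 14.8 in dKO sham (-0.50 ± 0.14, limma adjusted p = 0.0157). In WT SNI it had 16.3 and 13.8 FPKM against 14.1 and 16.2 in WT sham (-0.01 ± 0.14, limma adjusted p = 0.962). Its average change of -0.26 ± 0.099 missed the threshold (limma adjusted p = 0.0512). In dKO SNI against dKO sham 2 genes of the list rose and 11 fell (median -0.526). Of all genes, 23.8% were called higher there and 24.6% lower. In WT SNI against WT sham 2 rose and 2 fell (median -0.065). There 13.6% of all genes were called higher and 9.38% lower, so nothing particular to this list is read from the WT counts. In dKO SNI against WT SNI 1 was higher and 10 were lower (median -0.495). The shares of all genes were 10.7% higher and 13.4% lower. The tail of Tuba4a shown above ends without the tyrosine codon.

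Of 27 genes for nucleation, minus-end binding and severing of microtubules, 25 passed the filter, and 5 rose and 9 fell (median -0.043). The share called in either direction is close to that of all genes given above, so nothing particular to this list is read from it. By the smallest p the first 3 were Nedd1 (0.80 ± 0.114 SE, limma adjusted p = 0.000395), which brings the gamma tubulin ring complex to its sites, the augmin subunit Haus4 (-0.72 ± 0.107, 0.0005) and the ring complex subunit Tubgcp4 (-0.54 ± 0.082, 0.000575). The median over all genes in this contrast was 0.038, and the 10 isotypes had 0.098.

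**Figure D4:**
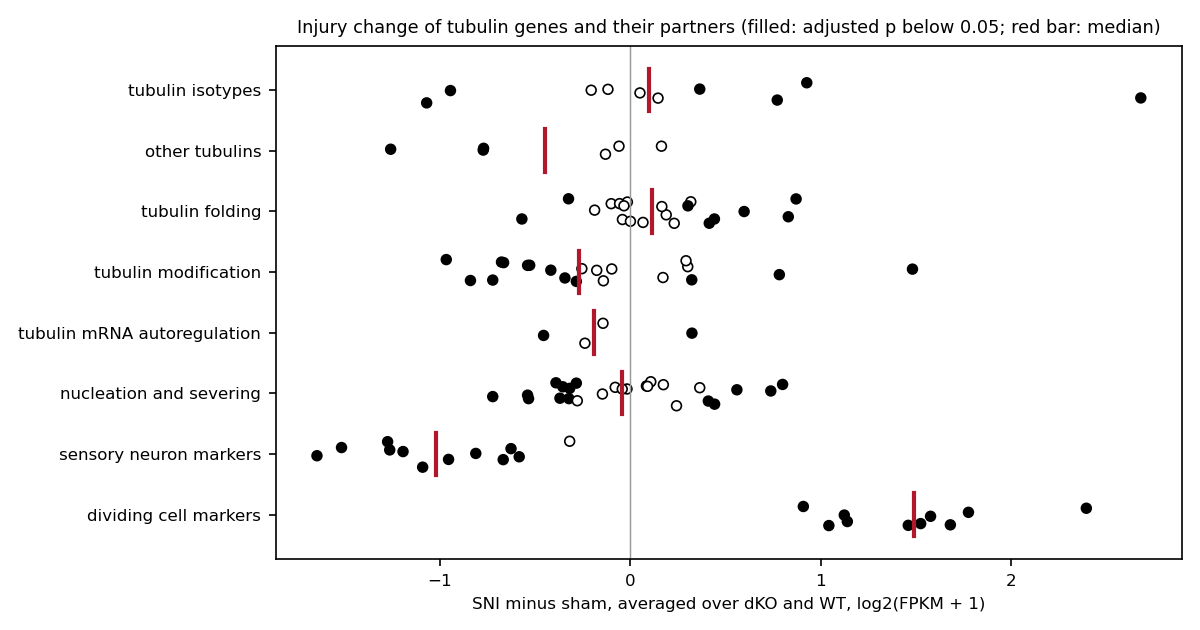
Change in SNI against sham averaged over the genotypes, on the log2(FPKM + 1) scale, for each tested gene of 8 lists, filled where the adjusted p in limma is below 0.05, with a red bar at the median of the list. The isotypes spread from -1.07 (Tubb4a) to 2.68 (Tubb6), the sensory neuron markers lie left of 0 (median -1.02) and the dividing cell markers right of 0 (median 1.49).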

How the data were processed

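Paired-end libraries were made with a TruSeq RNA kit from column-purified total RNA, per the labels' protocols, which do not say whether strand was kept; reads of overlapping and antisense genes cannot then be told apart. Per the submitters' processing notes the tools were edgeR (version not named), StringTie 1.3.0 and HISAT2 2.0.4 and the genome was mm10 or GRCm38.p4, without roles. The authors deposited 1 table of FPKM values, and its 8 columns were matched to the samples by the names in their descriptions. FPKM divides by transcript length and library total, so abundant transcripts of other cells lower all others. Low values were searched for steps of whole reads, and 41.3% of 8387 ratios came within 0.1 of an integer. The ratios had been centred on their most common value, which by itself places many near an integer. The search therefore cannot tell whether such steps exist. Counts were not recovered, no count model was run and depth is unknown. Replicate libraries correlated at r = 0.984 to 0.989.

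A gene entered (12884 did) with 1 FPKM or more in 2 or more libraries and was tested on log2(FPKM + 1) with limma 3.58.1 in R 4.3.3, with 1 mean per group over all 8 libraries, empirical Bayes moderation with a mean-variance trend, and two-sided p-values adjusted by Benjamini-Hochberg over all genes (threshold 0.05). This scale understates changes of low genes. The fit was checked on simulated data. Sums and shares were tested with exact permutation tests over all arrangements of the libraries, computed directly in Python 3.11.15. Coordinates, exons and coding sequences come from GENCODE M21 on GRCm38, the assembly the processing notes name; identity is over aligned coding bases (biopython 1.88).

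The isotypes and gene lists were chosen with earlier results of these data known. Named genes were the 10 isotypes, in each list the 3 genes first by p in the averaged injury contrast, and the 5 genes nearest to Tubb3 and to the isotypes with the largest rise and fall; 1 listed marker and the coding tails of 4 isotypes are not reported here. Alternatives were another pseudocount, other filters, median centring, quantile normalization, no trend, robust moderation, division by the library median and sums without Tuba1b and Tubb5 or with all beta genes, permutation within the other factor, fits of only the groups compared, a replicate block, each library left out, and, added after seeing the data, near-identical genes summed.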

Additional observations from a re-analysis of the deposited data

How the results depend on the processing

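Alternatives covered the pseudocount, filters, scaling, moderation, samples fitted, and each library left out, where the lone library of a group is assumed to vary like the others. The tubulin isotypes called in WT SNI vs WT sham numbered 5, 3 with no filter and 2 to 5 with 1 library left out. In dKO SNI vs dKO sham they numbered 5, 7 with quantile normalization, and 4 to 5 with 1 library left out. In dKO SNI vs WT SNI they numbered 5, 0 with no filter, 8 at a mean of at least 5 FPKM, 8 with quantile normalization, 8 with no trend, 3 with only the groups compared, and 0 to 9 with 1 library left out. Averaged over genotypes they numbered 6, 7 with quantile normalization, and 5 to 6 with 1 library left out. In dKO vs WT averaged over surgeries they numbered 3, 0 with no filter, 7 with quantile normalization and 0 to 7 with 1 library left out. They stayed at 0 in the interaction and in dKO sham vs WT sham.

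Over all genes, the calls in WT SNI vs WT sham numbered 2967, against 1269 with no filter, 1869 at a mean of 5 FPKM and 1101 to 3026 with 1 library left out. In dKO SNI vs dKO sham they numbered 6236, against 3880 at a mean of 5 FPKM and 3887 to 6200. In dKO sham vs WT sham they numbered 20, against 55 with a pseudocount of 0.1, 32 with only the groups compared and 11 to 31. In dKO SNI vs WT SNI they numbered 3106, against 60 with no filter and 10 to 3083. Averaged over genotypes they numbered 7092, against 4337 at a mean of 5 FPKM. In dKO vs WT averaged over surgeries they numbered 2866, against 49 with no filter and 420 to 3159. In the interaction they numbered 7, against 25 with no filter, 3 at a mean of 5 FPKM and 5 to 20.

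Single isotypes changed direction in 5 alternatives: Tubb5 in WT SNI vs WT sham with median centring (-0.032) and quantile normalization (-0.123), and with quantile normalization Tubb2a in dKO SNI vs dKO sham (-0.351) and, averaged over genotypes, Tuba1a (-0.14) and Tubb3 (-0.307). With 1 library left out, the log2 change spanned 0 for Tuba1b (-0.108 to 0.103) and Tubb5 (-0.105 to 0.14) in WT SNI vs WT sham, for Tubb2a (-0.193 to 0.211) and Tuba1a (-0.32 to 0.05) in dKO SNI vs dKO sham, and for Tubb3 averaged over genotypes (-0.087 to 0.187). So it did in dKO sham vs WT sham for Tuba4a (-0.243 to 0.01), Tubb3 (-0.107 to 0.012), Tuba1a (-0.149 to 0.047), Tubb2b (-0.311 to 0.124) and Tubb6 (-0.013 to 0.515), and in the interaction for Tuba1c (-0.131 to 0.147). None of these isotypes had been called in that comparison.

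The log2 difference of the Tubb3 share of beta FPKM in SNI vs sham, -0.042, was 0.058 with all beta tubulin genes in the sum and -0.058 to -0.02 with 1 library left out; in dKO vs WT it was 0.009 (-0.019 to 0.039). Summed alpha FPKM in SNI vs sham was 0.064 (-0.071 to 0.224), summed beta 0.092 (-0.086 to 0.302) and the alpha to beta ratio -0.028 (-0.078 to 0.018). In dKO vs WT summed alpha was -0.333 (-0.402 to -0.238), summed beta -0.455 (-0.529 to -0.336) and the ratio 0.123 (0.092 to 0.166). The cause of these changes was not tested.

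Replicate numbers occur in all groups, but same-numbered libraries deviated together by -0.188 to 0.254 only, so they share a number and nothing more is shown. With the replicate block the isotypes called were 5 in each injury comparison, 6 in dKO SNI vs WT SNI (Tuba1b added, adjusted p = 0.0442), 6 averaged over genotypes, 3 in dKO vs WT averaged over surgeries and 0 in the others. Over all genes the block gave 2881 calls in WT SNI vs WT sham and 6067 in dKO SNI vs dKO sham. It gave 3022 in dKO SNI vs WT SNI, 6904 averaged over genotypes and 2813 in dKO vs WT averaged over surgeries. In dKO sham vs WT sham it gave 47 and in the interaction 12. Depth is unknown, so levels near the filter carry a counting error that cannot be stated.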
